A study of Mus musculus with 12 samples.

Results

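The 10 genes described here, Kit, Cd34, Flt3, Myb, Gfi1, Gata1, Gata2, Lmo2, Tal1 and Runx1, are used by blood stem and progenitor cells. They were taken by name from a fixed list and by no threshold on a measured value, although earlier results of these data were known when the list was made. They are 10 of the 18193 genes that the array platform names by a single symbol. Every probe set, a group of short oligonucleotides that reads a transcript, was taken where the platform annotation gives a member as its only symbol. This gave 19 of the 45037 probe sets on the arrays, 6 for Runx1, 3 for Myb, 2 each for Kit and Gata2 and 1 for each of the other members.

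The arrays compared 6 co-cultures of mesenchymal stem cells (MSCs) with hematopoietic stem cells (HSCs) with 6 cultures of MSCs alone (control). Every well was seeded with 3000 MSCs, sorted from bone marrow as Sca-1+ PDGFR-α+ cells without the endothelial marker CD31, the blood cell marker CD45 and the red cell marker TER119. The co-cultures also received 7000 HSCs, sorted as Lin- Sca-1+ c-Kit+ cells, and the control wells received 0. Total RNA was taken on day 6 in both groups. The labels give male C57BL6/J mice aged 6 weeks for all 12 samples, while the paper names EGFP-expressing mice as the MSC donors of its co-cultures. No source states whether the cells on these arrays touched or were kept apart by a transwell, whether HSCs were removed before extraction, or which samples share a mouse. The p-values below hence reflect how much these 12 samples vary, and part of that variation may be technical. The question put to the data was whether transcripts of the seeded HSCs could still be read on day 6. In RNA of a whole culture, fewer cells of a type and less RNA per cell cannot be told apart. No array of HSCs alone was analysed here, so the signal that these probe sets give in HSCs is not known from these data.

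Blood stem cells depend on surface receptors, among them KIT and FLT3, that read growth factors made by the cells around them. Inside the nucleus, GATA2, TAL1, LMO2 and RUNX1 act together at shared enhancers of the stem cell program, and GATA1 takes the place of GATA2 as red cells and platelets form. Several members also work outside stem cells. GATA2 and KIT are used by mast cells, RUNX1 and LMO2 by myeloid cells, and CD34 by vascular endothelium and some stromal cells.

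The deposited values are array signals on a linear scale, and the 2% trimmed mean of each array lay between 496.6 and 497.3. To tell a transcript from background, a floor was set on each array at the 95th percentile of 126 probe sets of genes that marrow cultures are not known to use (odorant, vomeronasal and taste receptors and keratin-associated proteins). The floor was 49.2 to 81.2 on the co-culture arrays and 44.3 to 66.5 on the control arrays. Since it was mostly higher on the co-culture arrays, equal signals can give them lower ratios to the floor and fewer arrays above it. On all 12 arrays together, 20124 probe sets (44.7%) and 9839 genes (54.1%) exceeded it. Differences are co-culture minus control in log2(signal + 16), fitted with limma over all 45037 probe sets, and understate the change of dim transcripts. The signal of a probe set depends on its own oligonucleotides, so members are set against the floor and not against each other. A gene is represented by its brightest probe set, the one with the highest mean over all arrays.

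Sex-linked transcripts went against the male label on some arrays. Xist, which is transcribed from the inactive X chromosome, measured 13136 to 17840 on all 6 co-culture arrays, 21978 and 16810 on the control arrays numbered 3 and 4, and 60.5 to 117.6 on the other control arrays. The Y-linked gene Eif2s3y measured 1022 to 1331 on co-culture arrays 1, 2, 5 and 6, against 2604 to 2845 on control arrays 1, 2, 5 and 6. On arrays 3 and 4 it measured 13.6 and 0.8 in the co-cultures and 1.3 and 0.5 in the controls. The brightest probe set of Y-linked Kdm5d measured 260.4 to 355.2 on co-culture arrays 1, 2, 5 and 6. It measured 658.1 to 776.2 on the control arrays of those numbers. That of Y-linked Uty measured 343.9 to 531.7 on these co-culture arrays and 800.9 to 1041.0 on these control arrays. Co-culture arrays 1, 2, 5 and 6 thus carried both signals. On the arrays of those numbers, Xist and these Y-linked genes did not overlap between the groups. On the control arrays of those numbers the brightest Xist probe set, whose signals are given here, was above the floor. The other 2 Xist probe sets measured 19.2 to 62.8 and 0.9 to 24.2 there. Of these values only that of 62.8, on control 1, exceeded its floor. On arrays 3 and 4 of both groups Eif2s3y was below the floor. What this stands for was not tested. The arrays also fell into 2 sets of 6 on the first principal component of all probe sets (21.6% of the variance), with 3 co-cultures and 3 controls on each side. Of 10 macrophage markers, 10 were above the floor on all arrays (summed signal 184507 to 236193 in co-culture and 174383 to 237867 in control), as were 8 of 11 MSC and fibroblast markers. The CD45 gene Ptprc, whose protein the MSC sort excluded, measured 11519 to 12642 in the co-cultures and 10425 to 13144 in the controls.

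Of the 10 genes, 4 were above the floor on all 12 arrays (Gata2, Lmo2, Tal1 and Runx1). These same genes were above it in the controls, which had received no HSCs. Another 4 were above the floor on no array (Flt3, Myb, Gfi1 and Gata1). Kit exceeded the floor on 0 of 6 co-culture and 2 of 6 control arrays, and Cd34 on 1 of 6 in each group. The mean was higher in the co-cultures for 7 of the 10 genes and lower for 3, with a median difference of 0.03, against 0.01 over all genes, of which 53.2% were higher. By limma with Benjamini-Hochberg adjustment, 0 of the 19 probe sets passed 0.05 (background 0.00444%, 2 of 45037), and 1 had an unadjusted p under 0.05 (background 4.36%). The groups overlapped for all 19 (background 0.198% without overlap). Without arrays 3 and 4 of both groups, 4 genes were again above the floor on all the remaining arrays, and 0 of the 19 probe sets passed.

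**Figure D1:**
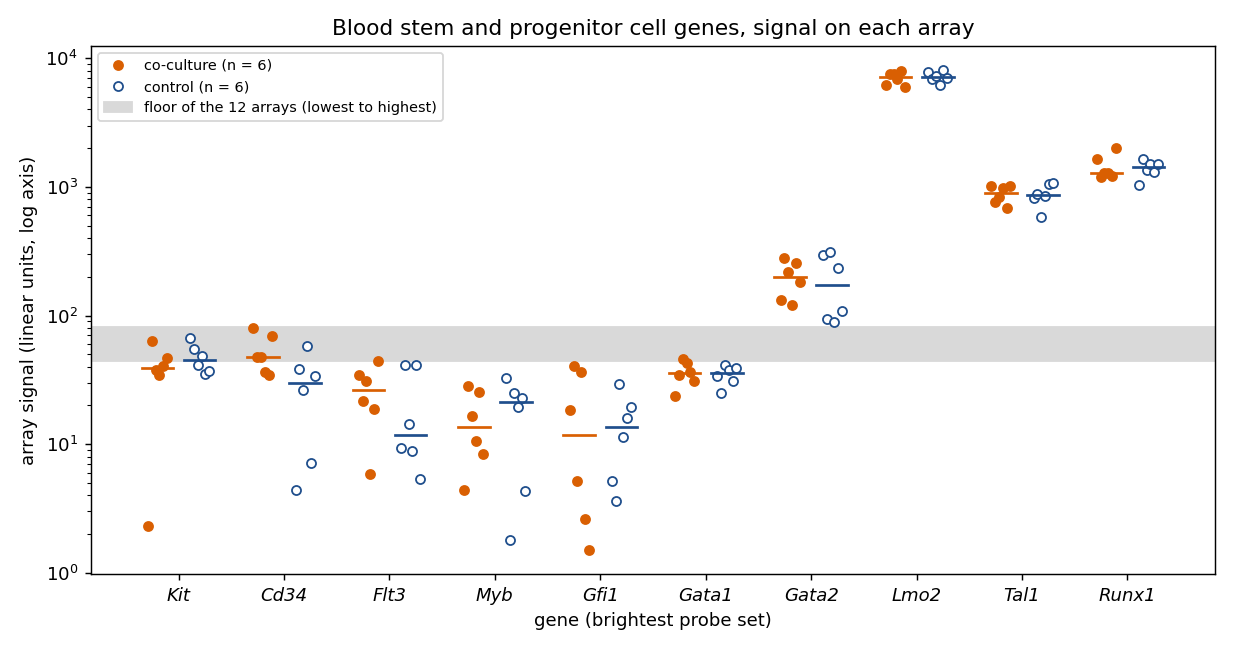
Signal of the brightest probe set of each gene on each array (linear units, log axis), co-culture in filled orange and control in open blue (n = 6 arrays each), with bars at the group medians and a grey band from the lowest to the highest array floor (44.3 to 81.2). Gata2, Lmo2, Tal1 and Runx1 lay above the band in both groups, and the points of the other 6 genes lay in or below it.

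Kit encodes the receptor for stem cell factor and is the c-Kit of the HSC sort. Its brightest probe set, 1452514_a_at, had a lowest, median and highest signal of 2.3, 39.0 and 63.0 in the co-cultures, against 35.1, 44.9 and 67.2 in the controls. The co-culture values spanned those of the controls except the highest, and the only 2 arrays above their own floor were control 1 (67.2 against a floor of 58.5) and control 4 (48.8 against 48.5). Co-culture 2, at 63.0, was below its higher floor of 81.2. The fitted difference was -0.35 (SE 0.29, 95% interval -0.98 to 0.29, limma adjusted p = 1.0). It was -0.065 without co-culture 1, the array at 2.3, and -0.044 as the mean of both Kit probe sets. The second Kit probe set, 1415900_a_at, was above the floor on no array, at 5.0 to 41.6 in co-culture and 7.8 to 29.2 in control. Its mean difference had the opposite sign, 0.26 (95% interval -0.32 to 0.84), and the signals of the 2 probe sets correlated at r = -0.44 over the 12 arrays. Since neither group was above the floor on all its arrays, no fold is given for Kit.

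Flt3, the receptor for FLT3 ligand on multipotent and lymphoid progenitors, was read by a single probe set. It gave a lowest, median and highest signal of 5.9, 26.3 and 44.2 in the co-cultures and 5.4, 11.9 and 41.6 in the controls. The groups covered almost the same range, and every value was below its array's floor. The fitted difference was 0.27 (95% interval -0.39 to 0.93, limma adjusted p = 1.0).

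Cd34, a sialomucin of the cell surface used as a progenitor marker, had the smallest p of the 10 genes. Its signals were 79.9, 47.8, 47.6, 36.6, 34.5 and 69.3 on co-culture arrays 1 to 6, against 4.4, 38.6, 26.6, 57.9, 7.2 and 33.7 on control arrays 1 to 6. The groups overlapped, and only co-culture 1 (floor 72.0) and control 4 (floor 48.5) exceeded the floor. The difference was 0.74 (SE 0.31, 95% interval 0.08 to 1.40), with an unadjusted p of 0.0313 from limma and an adjusted p of 1.0. Since neither group was above the floor on all its arrays, no fold is given. Without arrays 3 and 4 of both groups the difference was 1.09 (limma adjusted p = 0.647), and on those arrays alone it was 0.04 (limma adjusted p = 1.0). Within the 6 arrays below 0 on the first component, the co-cultures measured 34.5 to 47.8 and the controls 4.4 to 26.6. Within the 6 above 0, the co-cultures measured 36.6 to 79.9 and the controls 33.7 to 57.9. The differences within those sets were 1.12 and 0.37, and with the set as a block the interval was 0.23 to 1.26 (limma adjusted p = 0.835). Of 9 endothelial markers, 2 (Kdr and Vwf) were above the floor on all arrays, and Pecam1, Cdh5, Tek and Tie1 were above it on none. Egfl7 exceeded it on 5 co-culture and 5 control arrays, and Emcn on 1 co-culture and 4 control arrays. Flt1 exceeded it on 0 co-culture arrays and 1 control array. The summed signal of the 9 endothelial markers was 845 to 1736 in co-culture and 906 to 1639 in control. The summed signal of the 11 MSC and fibroblast markers was 13932 to 38518 in co-culture and 15184 to 39233 in control. Their part in the Cd34 signal was not tested.

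Myb and Gfi1 encode transcription factors that control the expansion and restraint of progenitors, Myb by sustaining their division and Gfi1 as a repressor that also directs neutrophil formation. Myb was read by 3 probe sets, and all 36 of their values were below the floor. The brightest, 1422734_a_at, gave a lowest, median and highest signal of 4.4, 13.6 and 28.6 in the co-cultures and 1.8, 21.2 and 32.8 in the controls. Probe set 1421317_x_at ranged over 6.0 to 47.7 in co-culture and 1.4 to 35.7 in control, and 1450194_a_at over 1.5 to 32.1 in co-culture and 1.2 to 50.4 in control. The groups overlapped for each of them. The fitted differences were -0.05 for the brightest, 0.55 for 1421317_x_at and 0.06 for 1450194_a_at, and the interval of the brightest ran from -0.66 to 0.55 (limma adjusted p = 1.0). Gfi1 measured 1.5, 11.8 and 40.6 in the co-cultures and 3.6, 13.7 and 29.6 in the controls as lowest, median and highest. The co-culture range enclosed the control range, and the difference was 0.04 (95% interval -0.67 to 0.76, limma adjusted p = 1.0).

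Gata1 directs the formation of red cells, platelets and mast cells. Its probe set gave a lowest, median and highest signal of 23.9, 35.6 and 46.3 in the co-cultures, against 24.8, 35.9 and 41.5 in the controls. These were the most even values of the 6 dim genes, and all of them lay below the floor. The difference was 0.03 (SE 0.13, 95% interval -0.25 to 0.30, limma adjusted p = 1.0). Of 6 measured erythroid markers, the globin gene Hba-a1, Alas2 and Slc4a1 were above the floor on no array, and Klf1 on 2 co-culture and 3 control arrays. Epor was above the floor on all arrays, at 207.9 to 361.1 in co-culture and 199.1 to 349.7 in control. The transferrin receptor Tfrc, used by all dividing cells, was also above the floor on all arrays, at 13926 ± 4442 in co-culture and 11650 ± 3760 in control (SD, n = 6 each).

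Gata2 keeps stem cells undifferentiated. Its brightest probe set, 1450333_a_at, measured 133.3, 280.1, 218.6, 120.1, 258.1 and 183.2 on co-culture arrays 1 to 6, against 294.8, 93.8, 310.9, 89.9, 234.7 and 108.5 on control arrays 1 to 6. All 12 values were above the floor, by a median factor of 2.72 in co-culture and 3.08 in control, and the control range enclosed that of the co-cultures. The means were 199 ± 65.2 in co-culture and 189 ± 103 in control (SD, n = 6 each), a difference of 0.18 (SE 0.33, 95% interval -0.55 to 0.90, limma adjusted p = 1.0). The controls split into 3 arrays at 234.7 to 310.9 and 3 at 89.9 to 108.5, a wider gap than any among the co-cultures. The second Gata2 probe set, 1428816_a_at, was below the floor on all arrays, at 20.5 to 55.2 in co-culture and 5.4 to 39.6 in control. Its difference was 0.54 (95% interval -0.01 to 1.09, limma unadjusted p = 0.0549, adjusted p = 1.0), and its signals correlated with those of the brightest at r = 0.23 over 12 arrays. Mast cells also use Gata2. Of 7 measured mast cell markers, 6 (Mcpt4, Tpsb2, Cma1, Fcer1a, Ms4a2 and Hdc) were above the floor on no array, and Cpa3 was above it on 2 arrays of each group.

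Lmo2 encodes a protein that binds no DNA and joins TAL1 to GATA factors. Its signals were 5969, 7210.4 and 7942 in the co-cultures and 6241, 7145 and 8113 in the controls as lowest, median and highest. They stood a median of 98.2 times above the floor in co-culture and 128 times in control, where the floors were mostly lower. The ranges of the groups coincided almost entirely. The means were 7022 ± 788 and 7239 ± 681 (SD, n = 6 each) in co-culture and control, and the difference was -0.05 (SE 0.10, 95% interval -0.27 to 0.18, limma adjusted p = 1.0). This was the narrowest interval among the 10 genes, which corresponds to a fold of 0.829 to 1.13.

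Tal1, the basic helix-loop-helix factor that starts the blood program in the embryo, measured 688.3, 904.6 and 1012 in the co-cultures and 582.4, 865.7 and 1074 in the controls as lowest, median and highest. All values were above the floor, by a median factor of 12.1 in co-culture and 15.3 in control. The control range enclosed the co-culture range. The difference was 0.02 (SE 0.16, 95% interval -0.32 to 0.36, limma adjusted p = 1.0).

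Runx1 encodes the DNA-binding subunit of core-binding factor, which is needed for the first stem cells to form and acts later in myeloid and lymphoid cells. Its brightest probe set, 1422864_at, measured 1185, 1280.2 and 2002 in the co-cultures and 1037, 1428 and 1658 in the controls as lowest, median and highest. Co-culture 6 was the highest of the 12 arrays and control 1 the lowest, and the other 10 values overlapped. The difference was 0.02 (SE 0.15, 95% interval -0.31 to 0.36, limma adjusted p = 1.0). The gene is transcribed from 2 starts, a distal one used mainly in established blood cells and a proximal one used early in blood formation. Both windows of RefSeq on GRCm38.p6, from 250 bases before to 50 bases after the start, are shown because the 6 Runx1 probe sets differed, and that of Tal1 because it held the GATA motif. Capitals mark the GATA motif (AGATAA or its complement TTATCT) and the RUNX motif (ACCACA or its complement TGTGGT), searched on both strands.
Runx1, distal start, chr16:92826025-92826324, minus strand: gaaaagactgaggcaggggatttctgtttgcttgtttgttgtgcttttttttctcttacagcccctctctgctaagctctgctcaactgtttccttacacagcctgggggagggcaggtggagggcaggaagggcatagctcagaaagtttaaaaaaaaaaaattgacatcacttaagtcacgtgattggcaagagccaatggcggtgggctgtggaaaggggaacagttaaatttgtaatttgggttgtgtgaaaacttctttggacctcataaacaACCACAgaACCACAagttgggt
Runx1, proximal start, chr16:92697280-92697579, minus strand: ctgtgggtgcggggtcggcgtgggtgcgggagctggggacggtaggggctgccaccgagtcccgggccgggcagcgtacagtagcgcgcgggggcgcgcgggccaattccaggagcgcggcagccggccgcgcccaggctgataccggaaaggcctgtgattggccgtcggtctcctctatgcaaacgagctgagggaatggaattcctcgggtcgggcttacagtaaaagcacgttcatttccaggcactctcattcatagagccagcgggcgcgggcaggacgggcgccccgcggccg
Tal1, upstream start, chr4:115056176-115056475, plus strand: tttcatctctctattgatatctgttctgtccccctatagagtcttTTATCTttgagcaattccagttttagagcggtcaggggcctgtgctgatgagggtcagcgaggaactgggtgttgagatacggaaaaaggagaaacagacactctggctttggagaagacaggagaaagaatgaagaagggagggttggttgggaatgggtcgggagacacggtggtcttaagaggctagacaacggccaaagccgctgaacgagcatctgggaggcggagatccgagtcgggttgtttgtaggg
The RUNX motif lay in 1 of the 14 windows of 9 members, the distal Runx1 window with 2 matches, and in 16.8% of all 32851 windows. The GATA motif lay in 1 of the 14, that of Tal1, and in 11.2% of all windows. The distal Runx1 window held 2 CpG dinucleotides and the proximal window 35, against a median of 7 over all windows. A motif match is a description of these letters only. Which start each probe set reads is not given in the sources used here.

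Of the 6 Runx1 probe sets, 5 were above the floor on all 12 arrays, and 1452530_a_at on 3 of 6 co-culture and 5 of 6 control arrays. Their signals ranged over 465 to 985 in co-culture and 563 to 881 in control for 1422865_at, and over 389 to 606 in co-culture and 253 to 541 in control for 1440878_at. The dimmer 1452531_at, 1427650_a_at and 1452530_a_at covered 319 to 394, 81.5 to 118 and 50.1 to 136 in co-culture, against 229 to 431, 89.4 to 114 and 31.0 to 106 in control. The groups overlapped for each of them. The 6 fitted differences ran from -0.16 to 0.21, with 4 positive and 2 negative, and none passed limma's test (adjusted p = 1.0 for each). The 15 pairs of Runx1 probe sets correlated over the 12 arrays at r from -0.48 to 0.75. Among the 4 brightest (1422864_at, 1422865_at, 1440878_at and 1452531_at), all pairs had a positive r, from 0.27 to 0.75. Each pair with a lower r held 1427650_a_at or 1452530_a_at, the 2 probe sets nearest the floor. The highest r was that of 1422864_at with 1452531_at, and the lowest that of 1427650_a_at with 1452530_a_at.

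**Figure D2:**
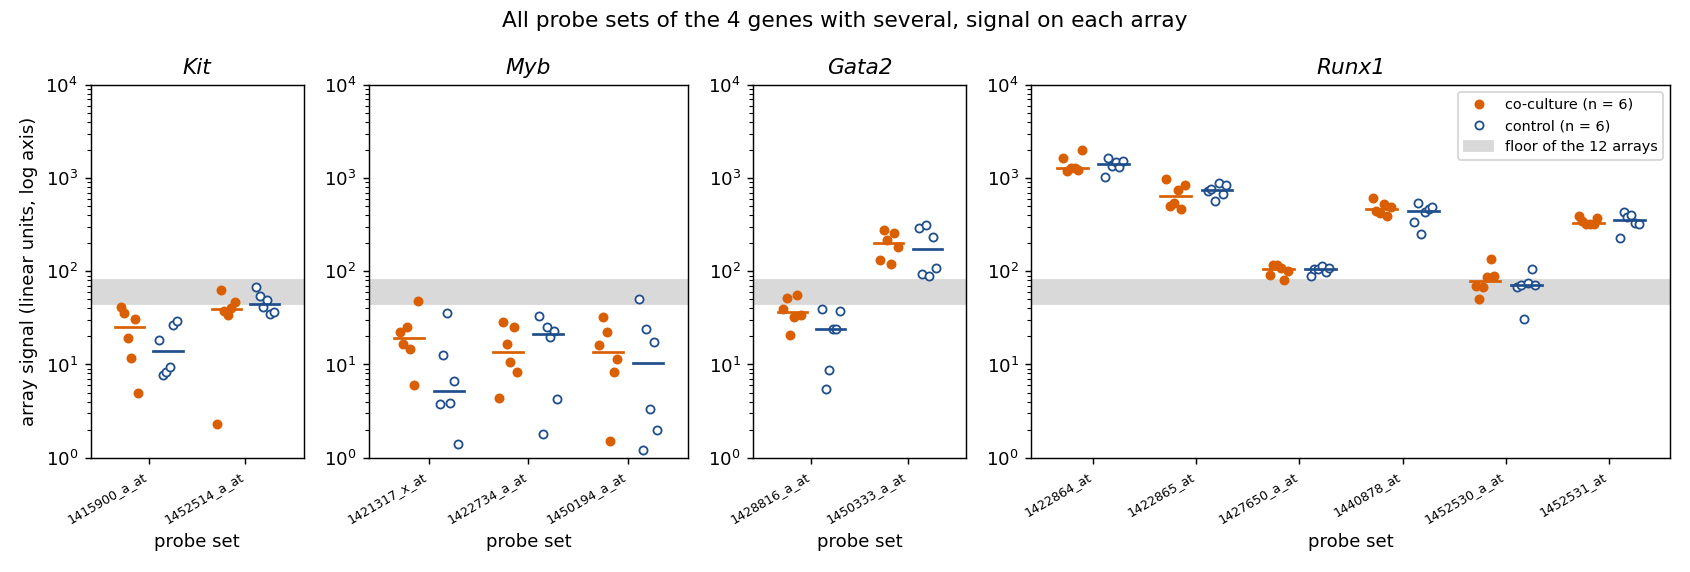
Signal of every probe set of Kit, Myb, Gata2 and Runx1 on each array (linear units, log axis), co-culture in filled orange and control in open blue (n = 6 each), with bars at the medians and a grey band for the array floors. Only 1450333_a_at of Gata2 and 5 of the 6 Runx1 probe sets lay above their floors on all 12 arrays, and co-culture and control points overlapped for each probe set.

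Over all 19 probe sets, 14 had a higher and 5 a lower mean in the co-cultures, with a median difference of 0.04, against 0.02 over all probe sets, of which 54.7% were higher. Signals were above the floor on all arrays for 8 and on none for 8. The 8 bright probe sets, which read Gata2, Lmo2, Tal1 and Runx1, had differences between -0.16 and 0.21. The larger positive differences, 0.74 for Cd34, 0.55 for Myb and 0.54 for Gata2, came from probe sets that were not above the floor on all arrays.

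**Figure D3:**
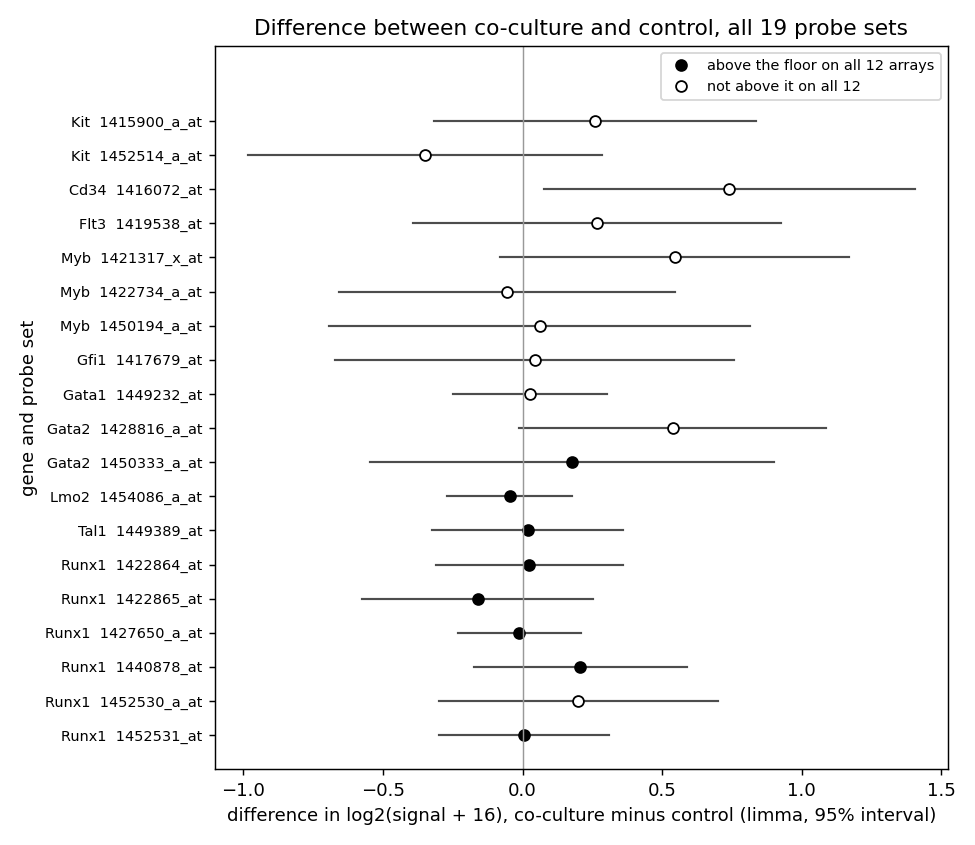
Difference of each of the 19 probe sets in log2(signal + 16), co-culture minus control, with its 95% interval from limma (n = 6 arrays per group); filled points were above the floor on all 12 arrays. The interval of Cd34 alone excluded 0 before adjustment, and the filled points lay between -0.16 and 0.21.

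Gata2 and Lmo2 separated the 2 sets of arrays on the first component in both groups. Gata2 measured 218.6 to 280.1 in the co-cultures and 234.7 to 310.9 in the controls on the arrays below 0, and 120.1 to 183.2 in the co-cultures and 89.9 to 108.5 in the controls on the arrays above 0. Lmo2 measured 7526 to 7942 in co-culture and 7260.3 to 8113 in control below 0, and 5969 to 6895 in co-culture and 6241 to 7029 in control above 0. For both genes the 2 sets did not overlap, as for 2972 of all probe sets (6.60%). Runx1 probe set 1422865_at ran the other way, at 465 to 545 in co-culture and 563 to 729 in control below 0, and 739 to 985 in co-culture and 762 to 881 in control above 0. The brightest Runx1 probe set and that of Tal1 overlapped between the sets. The component was computed from all probe sets, these included, so the separation is a description and was not tested. With the set as a block, the interval of the Gata2 difference narrowed to -0.15 to 0.51, and no probe set of the 10 genes passed the test.

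**Figure D4:**
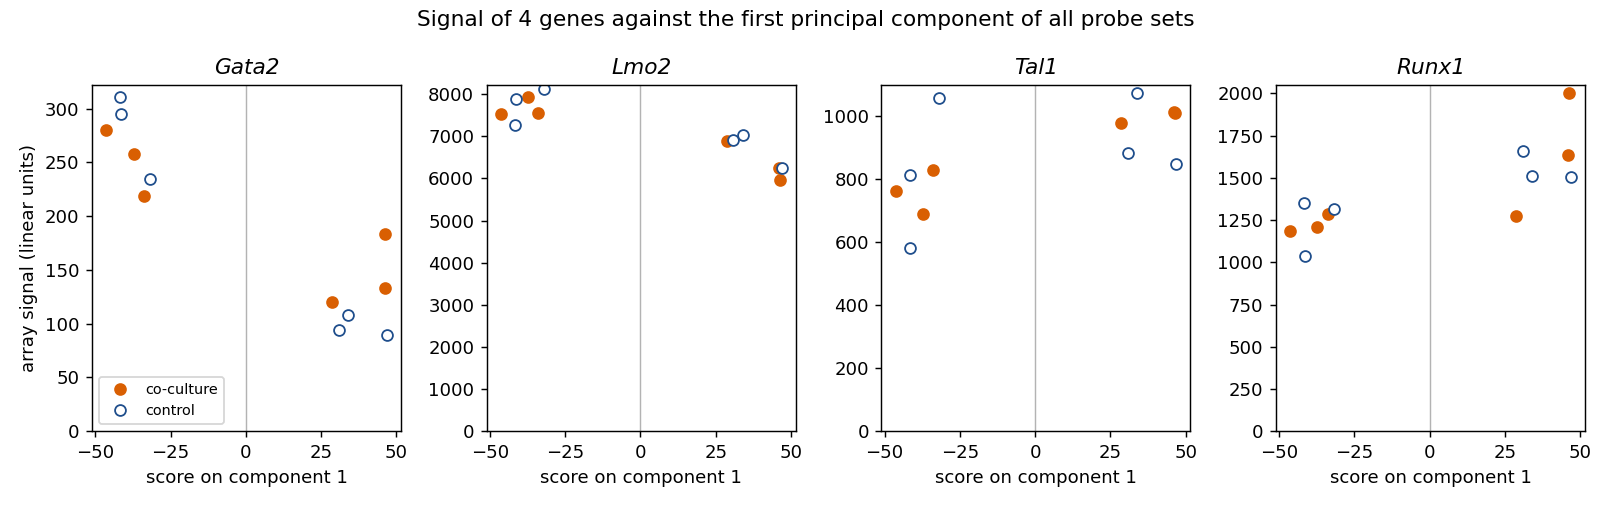
Signal of the brightest probe set of Gata2, Lmo2, Tal1 and Runx1 (linear units) against the score of each array on the first principal component, co-culture in filled orange and control in open blue (6 arrays each), with a line at 0. Gata2 and Lmo2 were higher on each of the 6 arrays below 0 than on each of the 6 above it, and each side held 3 co-cultures and 3 controls.

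Over the 12 arrays the signals of Lmo2 and Runx1 ran in opposite directions (r = -0.83), and Gata2 followed Lmo2 (r = 0.65). The genes whose log2 signals followed each member most closely, among the other 9838 genes above the floor on all arrays, were Ppp1r15a, Zfp14 and Cox6a2 for Gata2 (r = 0.96, 0.96 and 0.95), Tk2, Nfat5 and Cfp for Lmo2 (0.98, 0.97 and 0.96), Lrch3, Ap3d1 and Nckipsd for Tal1 (0.94, 0.93 and 0.93), and Gamt, Ccdc82 and Bambi for Runx1 (0.90, 0.90 and 0.89). These correlations share the arrays and the split along the first component. Against the macrophage receptor gene Csf1r, r was 0.72 for Gata2, 0.85 for Lmo2, -0.30 for Tal1 and -0.68 for Runx1. Against Ptprc it was -0.57 for Gata2, -0.17 for Lmo2, 0.77 for Tal1 and 0.49 for Runx1. Against the myeloid factor gene Spi1 it was -0.55 for Gata2, -0.65 for Lmo2, 0.45 for Tal1 and 0.56 for Runx1. The 4 genes therefore did not follow these blood cell genes in a common direction. Against the collagen gene Col3a1 of the MSC and fibroblast list, r was 0.52 for Gata2, 0.85 for Lmo2, -0.29 for Tal1 and -0.74 for Runx1. Against Col1a1 it was 0.42 for Gata2, 0.42 for Lmo2, -0.17 for Tal1 and -0.41 for Runx1. Against Pdgfra it was -0.07 for Gata2, 0.36 for Lmo2, -0.08 for Tal1 and -0.29 for Runx1. The part of macrophage-type or MSC RNA in the signals of Lmo2, Tal1 and Runx1 was not tested.

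The ligand of KIT was measured, and that of FLT3 was not analysed here. Kitl, the gene of stem cell factor, had 714.3, 967.3 and 1602 in the co-cultures and 757, 1028.5 and 1488 in the controls as lowest, median and highest, all above the floor. Its difference was -0.01 (95% interval -0.48 to 0.46, limma adjusted p = 1.0). The ligand's signal stood above the floor in both groups, while that of its receptor Kit did not.

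All 10 listed partners of the member transcription factors were measured, and 8 were above the floor on all arrays in both groups. None passed the test, with 5 higher and 5 lower and a median of 0.00. Lyl1, a relative of TAL1, averaged 1190 ± 95.9 in co-culture and 1184 ± 199 in control. Spi1, the myeloid factor PU.1, averaged 944 ± 147 in co-culture and 872 ± 131 in control, and Cbfb, the partner subunit of RUNX1, 5205 ± 616 in co-culture and 5372 ± 473 in control (SD, n = 6 each throughout). Erg, a stem cell and endothelial factor, and Gfi1b, a red cell relative of Gfi1, were the 2 not above the floor on all arrays. Each exceeded it on 1 array. The other 5 were Ldb1, which bridges LMO2 complexes, the TAL1 partners Tcf3 and Tcf12, the GATA cofactor Zfpm1 and the ETS factor Fli1, and their differences lay between -0.18 and 0.04.

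Of 28 other stem and progenitor genes, 27 were measured, 17 with a higher and 10 with a lower mean, and none passed the test (median 0.02, 1 at an unadjusted p under 0.05). On all arrays, 10 were above the floor and 8 were above it on none. Those above it included genes that mature myeloid cells also use. Cd48 averaged 9821 ± 1269 in co-culture and 9669 ± 1454 in control, and Cd93 12184 ± 2096 in co-culture and 11693 ± 2312 in control. The differences of the bright genes Hoxa9, Procr, Cd48, Ikzf1, Hhex, Cd93, Cebpa, Cdk6, Csf3r and Il7r lay between -0.11 and 0.26. Meis1 and Slamf1 were above the floor on all control arrays and on 5 and 4 of the 6 co-culture arrays, at means of 153 ± 90.7 and 99.4 ± 36.6 in co-culture, against 152 ± 75.6 and 95.7 ± 31.7 in control. Mecom, Hlf, Cd27, Prom1, Fgd5, Tek, Mpo and Ctsg, among them the stem cell regulators Mecom and Hlf, exceeded the floor on no array. The 2 largest differences in each direction were in genes not above the floor on all arrays. Elane, neutrophil elastase, had 44.0 ± 16.1 in co-culture and 22.6 ± 10.9 in control, a difference of 0.63 (limma unadjusted p = 0.0149, adjusted p = 1.0). The difference of Mpo, myeloperoxidase, was 0.49, that of Cd27, a TNF receptor family member, was -0.39 and that of Prtn3, proteinase 3, was -0.23.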

How the data were processed

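RNA of 12 cultures was measured on Affymetrix Mouse Genome 430 2.0 arrays. The authors hybridized and scanned the arrays and computed with the GeneChip Operating Software the deposited intensity, a signal per probe set on a linear scale; no source used here gives its summary method or scaling target. Here each signal was taken as log2(signal + 16), since the deposited values are not logged. Groups were taken from the sample labels. Of 45037 probe sets, 34945 carried 1 symbol, 932 several and 9160 none; only the first were named. Co-culture was compared with control by limma 3.58.1 in R 4.3.3 (lmFit, eBayes), p-values being adjusted by Benjamini and Hochberg's method over the whole table (threshold 0.05), without a block or a filter. The fit was tested on simulated data, with changes put only into probe sets brighter than the median. Of 50 probe sets per size, it recovered 24% at a log2 change of 0.5, 80% at 1 and 96% at 1.5 and at 2. It also called 11 unchanged probe sets. All sizes were put into the same simulated data, and many true changes together ease the adjusted threshold for each. Recovery of a change in a single probe set, or of changes in dimmer probe sets, was not tested and may be lower.

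The members and all lists (ligands, partners, other stem and progenitor genes, markers of macrophages, MSCs, endothelium, mast, erythroid, megakaryocyte, neutrophil and lymphocyte cells) were chosen with earlier results of these data known. The named genes are the members with all their probe sets, the listed genes above the floor in a group or with the 2 largest differences in each direction, and the 3 closest followers of each member above the floor. Csf1r, Ptprc, Cxcr2, Rag1 and other single markers were named after their values were seen. Alternatives covered scaling between arrays, the constant added, a filter on dim probe sets, replicate blocks, limma's trend and robust options, the methods' unpaired test, the mean of all probe sets of a gene, the floor and left-out arrays. The number of arrays limits the precision. Promoter windows are RefSeq's, on GRCm38.p6, for 9 of the 10 members. The Y-linked gene Ddx3y was not analysed here.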

Additional observations from a re-analysis of the deposited data

Results flagged for a closer look

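A wide gap was found in 1 of the 38 groups of 6 arrays examined (19 probe sets in each of the co-culture and control groups). In the controls, Myb probe set 1421317_x_at measured 35.7 on control 3 and at most 12.5 on the others, a gap of 0.676 of the whole range of that group. For normally distributed values, chance gives a gap that passes the limit used in about 1 group in 20. The rate for these linear signals near background was not estimated. All 12 values of this probe set, 6.0 to 47.7 in co-culture and 1.4 to 35.7 in control, were below the floors of their arrays.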

How the results depend on the processing

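No probe set of the 10 genes that was tested was called in the 27 alternatives of the fit over probe sets. The filter on dim probe sets left Gata2, Lmo2, Tal1 and Runx1 to test. The mean of all probe sets called none of the 10 genes either, and the smallest adjusted p of a gene was 0.647 (Cd34, limma without arrays 3 and 4). Over all probe sets, 2 were called. Alternatives gave 1 with quantile, median or 75th percentile scaling, with a constant of 1, with the methods' unpaired test and with the component set as a block. They gave 0 with a constant of 64, the filter on dim probe sets, trend and robust options, arrays 3 and 4 alone and either component set alone, 8 without arrays 3 and 4, and 0 to 4 when each array was left out. At an unadjusted p under 0.05, 1264 were higher and 700 lower, against 918 and 1010 with quantile normalization, 893 and 1065 with median centring, 1382 and 622 with 75th percentile centring. Without arrays 3 and 4, 3085 passed an unadjusted 0.05 in place of 1964.

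With the replicate number as a block, 0 probe sets were called and 2136 had an unadjusted p under 0.05. Same-numbered arrays correlated at -0.16, -0.13, 0.12, 0.15, 0.10 and 0.15 in their deviations. At numbers 1 and 2, where r was below 0, the co-culture and control scores on the first component differed in sign. At numbers 3 to 6, where r was above 0, the scores shared a sign. Every other combination of a co-culture and a control array followed the same rule. These correlations thus restate that split and cannot show whether a number marks a pair. No source says what a number marks, so the numbers were not taken as pairs. Even so, Eif2s3y was above the floor on arrays 1, 2, 5 and 6 and below it on arrays 3 and 4 in both groups.

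The 4 genes above the floor numbered 4 also without keratin-associated proteins or arrays 3 and 4, and were 3 at the 99th percentile, 5 at the median and 2 (Lmo2 and Tal1) when every probe set of a gene had to pass. Of 274 recomputed differences 39 changed sign, none of them called. Myb had 0.056 with a constant of 1, 0.11 without arrays 3 and 4, 0.014 on the arrays above 0 on the component and 0.18 as the mean of its probe sets. Gfi1 had -0.019 with quantile normalization, -0.19 with a constant of 1, -0.085 on arrays 3 and 4 and -0.16 below 0. Gata1 had -0.048 with quantile normalization, -0.013 with median centring, -0.020 without arrays 3 and 4 and -0.048 above 0. Gata2 had -0.058 and Lmo2 0.10 on arrays 3 and 4, and Gata2 -0.14 below 0. Tal1 had -0.022 with median centring, -0.15 without arrays 3 and 4 and -0.067 below 0. Runx1 had -0.015 with median centring and -0.15 on arrays 3 and 4. Leaving out single arrays gave -0.22 to 0.070 for Myb, -0.14 to 0.20 for Gfi1, -0.034 to 0.099 for Gata1, -0.092 to 0.084 for Tal1 and -0.076 to 0.077 for Runx1. The Cd34 difference was 1.25 with a constant of 1 and 0.36 with 64. The component sets were chosen after seeing the data. The cause of these shifts was not tested.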

Other observations

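Most markers of other blood lineages were not above the floor on all arrays, and several of these, such as Prtn3 and Klf1, exceeded it on some. Of 8 measured neutrophil and precursor markers, only S100a8 was above it on all arrays, at 452 ± 258 in co-culture and 322 ± 174 in control (SD, n = 6 each). Cxcr2, a chemokine receptor of neutrophils, measured 13.8 to 44.4 in co-culture and 2.8 to 17.8 in control, below the floor on every array, a difference of 0.79 (limma unadjusted p = 0.00184, adjusted p = 0.734). None of 5 lymphocyte markers was above the floor on all arrays. Rag1, the recombinase of lymphocyte precursors, measured 3.0 to 16.5 in co-culture and 0.6 to 1.9 in control, without overlap (background 0.198%) and far below the floor (difference 0.42, limma adjusted p = 1.0). Of 4 megakaryocyte markers, Itga2b and Pf4 were above the floor on all arrays, Itga2b at 172 ± 46.7 in co-culture and 163 ± 50.9 in control, and Pf4, which macrophages can also express, at 16016 ± 4373 in co-culture and 16196 ± 4687 in control. Each of 6 erythroid markers had a higher mean in co-culture (median difference 0.20), as had each of the 5 lymphocyte markers, with 0 called in either list. Over all genes, 53.2% were higher. Of these erythroid and lymphocyte markers, only Epor and Tfrc were above the floor on all arrays. Of the MSC and fibroblast markers, Lum, Thy1 and Lepr were not above the floor on all arrays, and the median difference of the 11 was -0.25, with 0 called.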
